A study of Mus musculus with 18 samples.

Results

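The genes described here are 48 genes of the cell cycle and of DNA replication, chosen by name, on mouse gene expression arrays of embryonic stem cells that were differentiated toward dopaminergic neurons with and without a knockdown of HPRT, the purine salvage enzyme whose loss causes Lesch-Nyhan disease. A probe counted as a member's when its symbol in the array annotation equalled the member's, and the brightest of a member's probes over all arrays stands for it. All 48 were on the array, among 30869 distinct symbols. The members fall into 8 roles: replication licensing, helicase and clamp (11 genes), nucleotide supply (4), G1 cyclins and kinases (8), S and M phase cyclins (3), spindle checkpoint and mitotic kinases (7), spindle, kinetochore and chromosome (9), transcription factors (3) and CDK inhibitors (3).

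RNA came from ESD3 cells, an established embryonic stem (ES) line of mouse strain 129s2/SvPas kept on feeder layers of mouse embryo fibroblasts in medium with LIF and bFGF. Knockdown cells carried a viral shRNA against HPRT and control cells the same kind of virus with an shRNA against luciferase, so every group, the control included, was infected. Both were sampled as ES cells, as spherical neural masses (SNM) and as cultures of the final neuronal stage, which gives 6 conditions with 3 arrays each. The 3 arrays of a condition were hybridised from 1 RNA pool of replicate cultures, so errors and tests here speak of measurement on arrays only, not of how cultures or separately infected lines vary. The smallest p of an exact permutation test with 3 arrays on each side is 0.1. Levels below are background-corrected, normalized log2 signals, and a probe is said to be called where limma gave an adjusted p under 0.05 over all probes tested and the change was at least 1.5-fold.

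A cell that divides first licenses its replication origins, when Cdc6 and Cdt1 load the Mcm2 to Mcm7 helicase, and then copies its DNA with the sliding clamp Pcna and with deoxynucleotides made by ribonucleotide reductase and thymidylate synthase. D-type cyclins with Cdk4 or Cdk6 and cyclin E with Cdk2 drive entry into S phase by releasing E2F factors, and CDK inhibitors hold these kinases back. Later, cyclin B, the Aurora and Polo kinases and the spindle checkpoint carry the cell through mitosis, with many of their genes switched on by complexes that read the CHR element. Mouse ES cells cycle fast with a short G1 phase, whereas neurons have left the cell cycle.

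The promoters of the members are shown for the E2F and CHR elements, since these elements are known to time S phase and mitotic genes and were not used in choosing the members. RefSeq promoter windows on build GRCm38.p6, from 250 bases before to 50 bases after a transcription start, were at hand for 34 members, with 39 windows. An E2F site was searched for as TTTCCCGC, TTTCGCGC, TTTGCCGC or TTTGGCGC, a CHR as TTTGAA or TTCGAA, and a CCAAT box as CCAAT, each on both strands. The letters of no motif contain those of another, but matches of 1 motif can overlap, and then all of them are marked. E2F letters were in the windows of 9 members, 6 of them among the 9 licensing, helicase and clamp genes with a window (Mcm3, Mcm5, Mcm6, Mcm7, Cdc6 and Cdt1), and in 2.26% of all 32851 windows against 23.1% of the members'. CHR letters were in the windows of 12 members, 4 of the 5 spindle checkpoint and mitotic kinase genes with a window (Cdc20, Bub1, Aurka and Plk1) and 4 of the 5 spindle, kinetochore and chromosome genes (Top2a, Mki67, Kif11 and Cenpa) among them, and in 19.2% of all windows against 30.8% of the members'. CCAAT letters were in 69.2% of the members' windows and in 37.4% of all windows. A match of letters is a description of sequence, not a bound site. The 180 bases just before the start are given below for 3 helicase genes that hold E2F letters there and for 2 mitotic genes that hold CHR letters there, written 5′ to 3′ along the gene's strand with every E2F, CHR and CCAAT match in capitals.
Mcm5 (chr8:75109329-75109508, plus strand): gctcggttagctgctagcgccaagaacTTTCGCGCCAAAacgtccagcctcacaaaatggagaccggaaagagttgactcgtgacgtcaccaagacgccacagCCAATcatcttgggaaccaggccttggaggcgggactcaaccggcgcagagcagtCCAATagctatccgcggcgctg
Mcm6 (chr1:128359706-128359885, minus strand): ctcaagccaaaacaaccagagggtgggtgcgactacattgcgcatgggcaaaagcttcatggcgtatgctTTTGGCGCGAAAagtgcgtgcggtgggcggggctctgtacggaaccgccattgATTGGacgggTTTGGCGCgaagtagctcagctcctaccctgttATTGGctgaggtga
Mcm7 (chr5:138171884-138172063, minus strand): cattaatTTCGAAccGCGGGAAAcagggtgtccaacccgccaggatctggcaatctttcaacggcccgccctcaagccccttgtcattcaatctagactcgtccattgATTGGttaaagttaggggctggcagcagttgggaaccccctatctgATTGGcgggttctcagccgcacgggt
Cdc20 (chr4:118437344-118437523, minus strand): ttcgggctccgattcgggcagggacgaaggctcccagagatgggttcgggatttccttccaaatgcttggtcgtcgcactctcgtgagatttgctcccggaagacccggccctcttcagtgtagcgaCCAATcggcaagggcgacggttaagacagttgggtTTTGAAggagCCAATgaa
Top2a (chr11:99024190-99024369, minus strand): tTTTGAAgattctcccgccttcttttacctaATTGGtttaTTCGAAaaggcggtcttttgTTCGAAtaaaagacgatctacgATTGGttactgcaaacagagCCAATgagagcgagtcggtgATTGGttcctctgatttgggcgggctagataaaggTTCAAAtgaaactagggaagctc

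The check of the knockdown came first. Hprt1, the symbol under which the array lists the targeted gene, stood at 12.04, 12.07 and 12.004 on the control ES arrays and at 8.14, 7.96 and 7.75 on the knockdown ES arrays. It stood at 11.23, 11.23 and 11.13 against 9.34, 9.47 and 9.50 at the SNM stage and at 11.08, 11.03 and 11.03 against 6.56, 6.64 and 6.597 at the neuronal stage. Knockdown arrays lay below control arrays at each stage, by 94.1%, 70.5% and 95.4%, and the reduction was thus smallest at the SNM stage. Each array detected between 18827 and 22202 probes and between 43 and 45 of the 48 members. Arrays of 1 condition correlated at 0.992 to 0.997 over all probes, and knockdown with control arrays at 0.992 to 0.994 among ES arrays, 0.976 to 0.982 among SNM arrays and 0.956 to 0.960 among neuronal arrays.

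Of the 48 members, 42 were detected on all 18 arrays. Ccnb2 (cyclin B2), Bub1 (a spindle checkpoint kinase) and Cenpe (a kinetochore motor) were detected on none, and Cdk6, Kif20a and Cdkn1b on some arrays only. For Ccnb2, Bub1 and Cenpe the probes gave no value above background in any condition, which says nothing of the genes beyond that bound. Members entered a test if 1 or more of the conditions in it had them detected on each of its 3 arrays, which left 43 for ES cells, 44 for SNM and 43 for neuronal cultures.

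**Figure D1:**
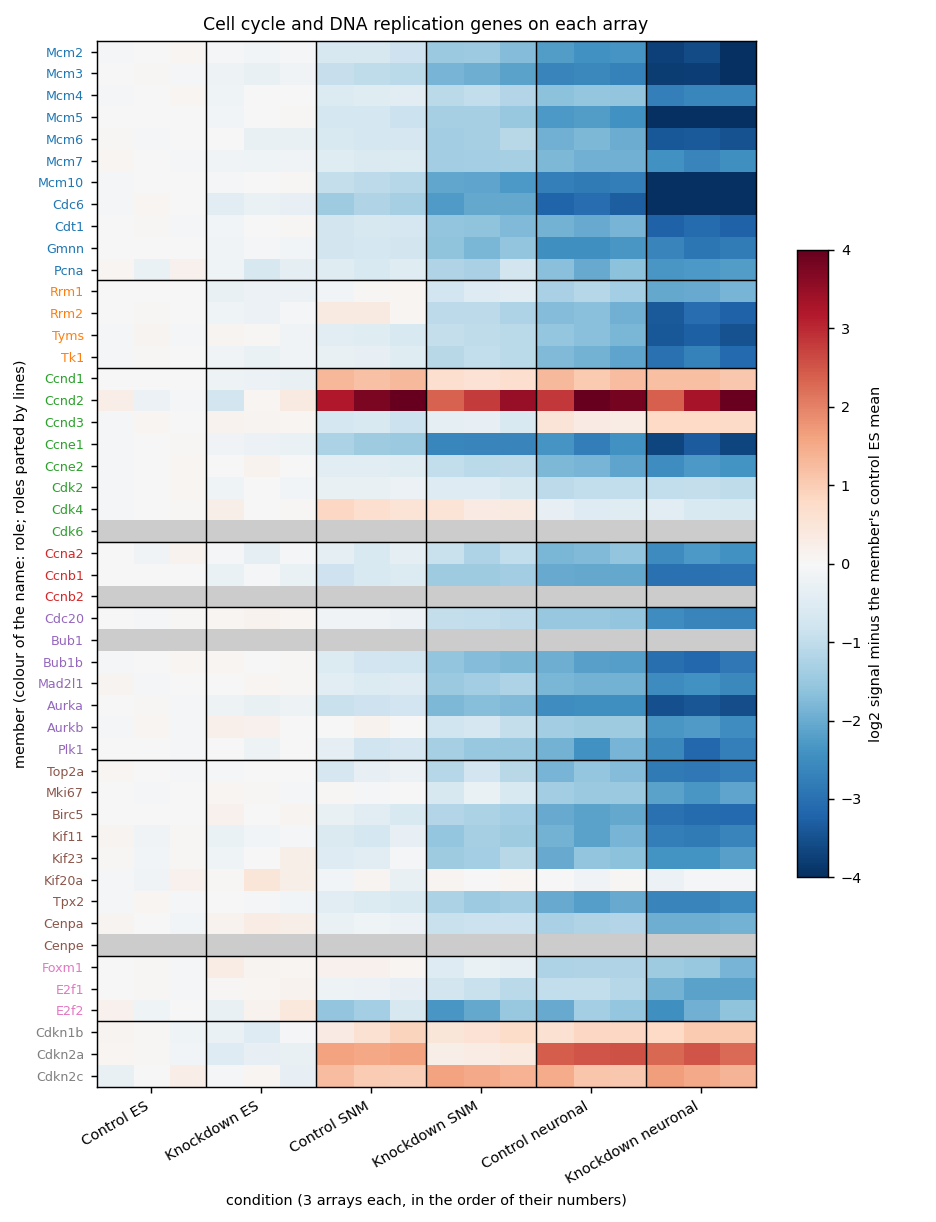
Log2 signal of the 48 members on each of the 18 arrays (columns, 3 per condition), minus the member's mean on the control ES arrays, on a colour scale that ends at -4 and 4. Names are coloured by role, and grey rows are members detected on all 3 arrays of no condition. In most rows the colour deepens from ES to SNM to neuronal stage and from control to knockdown. Ccnd1, Ccnd2 and the 3 members grouped as CDK inhibitors turn red at the SNM and neuronal stages.

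At the ES stage no member was called between knockdown and control cells. The call rule took 0.531% of all symbols tested as higher and 1.27% as lower in this comparison. The 43 members tested had a median log2 fold change of -0.06, with a range from -0.39 for Pcna to 0.22 for Cenpa, beside a median of 0.01 over all 13183 symbols tested. At an unadjusted p under 0.05, 12 of the 43 members differed, beside 27.2% of all symbols tested, and 5 had an adjusted p under 0.05 at changes under 1.5-fold, beside 12.5% of all symbols with such a p at any size of change. Both shares of the members lie near those of all symbols. These 5 were Cdc6, which loads the helicase (log2 fold change -0.35 ± 0.09 SE, adjusted p = 0.0224), Ccnd1 (cyclin D1, log2 fold change -0.23 ± 0.06 SE, adjusted p = 0.0279), Aurka (Aurora A kinase, log2 fold change -0.24 ± 0.05 SE, adjusted p = 0.00787), Cenpa (the centromeric histone, log2 fold change 0.22 ± 0.06 SE, adjusted p = 0.0314) and Cdkn2a (log2 fold change -0.38 ± 0.08 SE, adjusted p = 0.00627). Of these, only Cenpa was on the higher side.

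At the SNM stage most members were lower in knockdown cells. Of 44 members tested, 30 were lower in knockdown than in control cells and none was higher, and 14 were not called. The rule called 8.76% of all 14705 symbols tested lower and 12% higher. The members' median log2 fold change was -0.75, from -1.38 for Rrm2 to 0.44 for Cdkn2c, beside a median of -0.02 over all symbols. At the neuronal stage 28 of 43 members tested were lower, none was higher and 15 were not called, where the rule called 14.4% of 14749 symbols lower and 14.3% higher. The median was -0.75 there too, over a wider range from -1.78 for Mcm5 to 0.41 for Ccnd3, beside 0.01 over all symbols. Leaving out each array in turn kept the first count between 28 and 31 and the second between 27 and 29. In RNA of whole cultures, fewer cells that cycle and less of these mRNAs in each cell cannot be told apart.

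**Figure D2:**
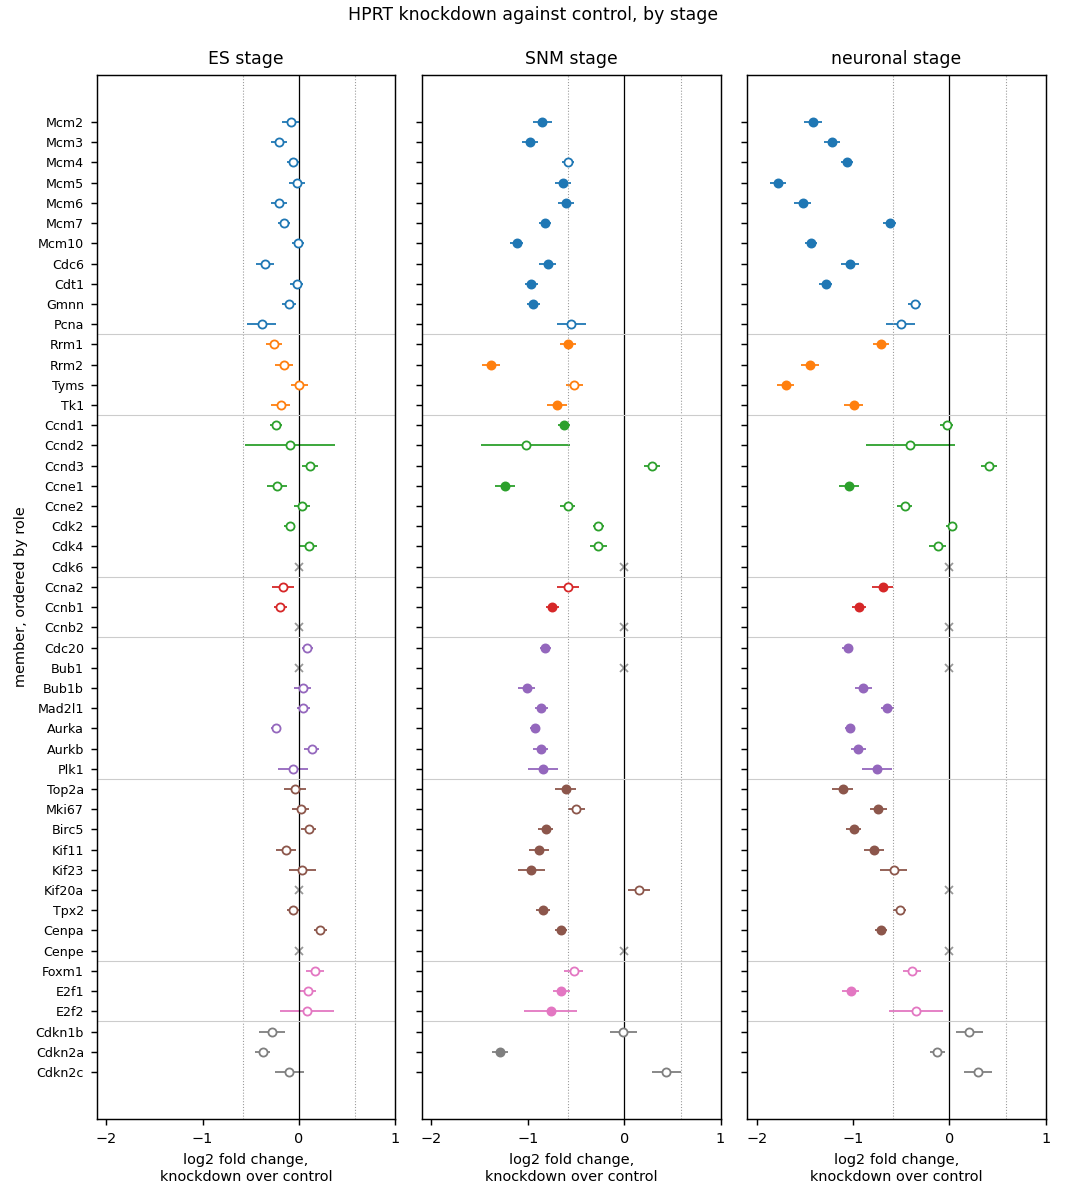
Log2 fold change of each member in knockdown over control cells at the 3 stages, with its standard error from limma; filled points are called, open points are not, crosses at 0 mark members not tested, and dotted lines mark 1.5-fold. No point is filled at the ES stage, and all 30 filled points in the SNM panel and all 28 in the neuronal panel lie left of 0.

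**Figure D3:**
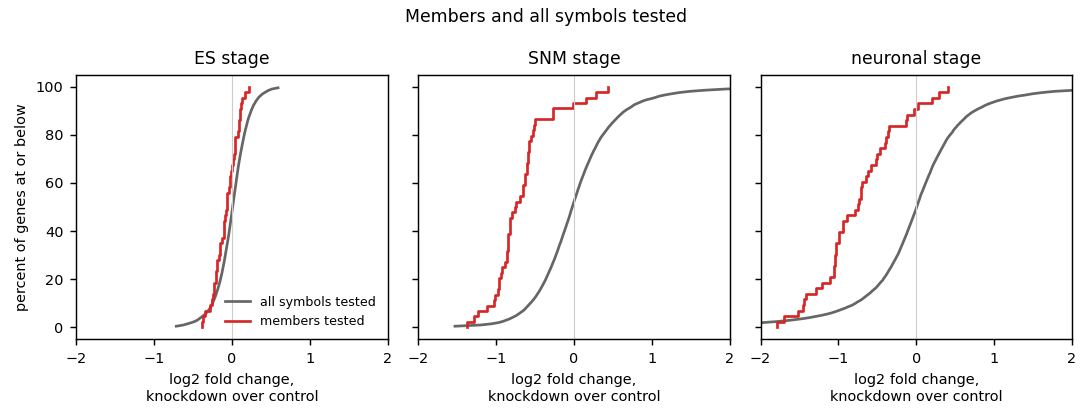
Percent of genes (y axis) at or below a log2 fold change of knockdown over control cells (x axis), for the members tested and for all symbols tested, at each stage. At the SNM and neuronal stages most of the members' line lies left of the other, with medians of -0.75 at both stages against -0.02 and 0.01. At the lowest log2 fold changes the members' line lies right of the other.

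Cultures at the later stages also differed in the genes of cell types, and those values stand beside the members'. The 5 ES cell genes Pou5f1, Nanog, Zfp42, Tdgf1 and Utf1 were all detected in every condition. Their summed signal ranged from 3633 to 3892 on control and from 2507 to 2731 on knockdown SNM arrays, where 3 of 5 were called lower in knockdown cells, and from 2807 to 2965 on control and from 693 to 773 on knockdown neuronal arrays, where 5 of 5 were called lower, with log2 fold changes from -2.39 to -1.32. The control ES arrays held 21058 to 21151. ES cell genes were thus lower in the same comparisons as the members. Of 6 neuron genes tested, 4 were called lower in knockdown cells at the neuronal stage, with a summed signal over 7 genes of 6811 to 7364 on control and 1380 to 1554 on knockdown arrays. Tubb3 was detected on no knockdown neuronal array, and Snap25 on no array of any condition. At the SNM stage 1 of these 6 was lower (3868 to 4093 against 3755 to 3841). Oligodendrocyte genes went the other way, with 7 of 8 called higher in knockdown cells and summed signals of 4965 to 5400 against 47034 to 50862, whereas at the SNM stage 4 of 7 tested were lower and 1 higher (12288 to 12679 against 10439 to 11399). All 8 skeletal muscle genes were lower in knockdown cells at the neuronal stage (69705 to 70614 against 312 to 423), where Tnnt3, Ckm and Myog were detected on no knockdown array, and 6 of 7 tested were higher at the SNM stage (1459 to 1501 against 2771 to 2994). Of 8 fibroblast and feeder cell genes, 7 were lower at the neuronal stage (22006 to 25221 against 11539 to 14848) and 2 higher at the SNM stage (6427 to 7006 against 7238 to 8838). Of 6 genes of neural progenitors and radial glia, 1 was higher and 1 lower at the SNM stage (7327 to 8223 against 10548 to 11811), and 1 was higher and 3 lower at the neuronal stage (7245 to 7757 against 7624 to 8691). The part of these cell types in the members' levels was not tested.

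Most replication licensing, helicase and clamp genes were lower in knockdown cells at both later stages. At the SNM stage 9 of 11 were called lower and at the neuronal stage again 9 of 11, with a median log2 fold change of -0.82 and then -1.22. For all 11, knockdown and control arrays did not overlap at either stage, as was so for 57.8% and 64.8% of all symbols tested. This pattern was led by Mcm10, a replisome factor that helps to activate the helicase, at the SNM stage, and by the helicase subunits Mcm5 and Mcm6 at the neuronal stage. Mcm10 read 10.28, 10.18 and 10.11 on control and 9.15, 9.12 and 8.95 on knockdown SNM arrays (log2 fold change -1.12 ± 0.06 SE, adjusted p = 8.40e-10), and 8.51, 8.41 and 8.46 against 7.09, 6.99 and 6.98 at the neuronal stage (log2 fold change -1.44 ± 0.06 SE, adjusted p = 1.18e-11). Mcm3, another helicase subunit, read 8.19, 8.11 and 8.06 against 7.27, 7.18 and 6.99 at the SNM stage (log2 fold change -0.97 ± 0.08 SE, adjusted p = 7.14e-08). No knockdown array reached a control array for either gene.

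Mcm5 read 12.86, 12.90 and 12.89 on control and 12.77, 12.90 and 12.91 on knockdown ES arrays, which overlap. At the SNM stage it read 12.18, 12.18 and 12.04 against 11.56, 11.56 and 11.37 (log2 fold change -0.64 ± 0.08 SE, adjusted p = 1.08e-05) and at the neuronal stage 10.58, 10.66 and 10.44 against 8.90, 8.85 and 8.59 (log2 fold change -1.78 ± 0.08 SE, adjusted p = 2.68e-11). The SNM call fell just under 1.5-fold without knockdown SNM array 3 (-0.57). The neuronal change was a 3.44-fold difference, the widest of any member between knockdown and control cells. Mcm6, whose promoter holds E2F letters at 2 places above, read 9.24, 9.36 and 9.18 on control and 7.76, 7.80 and 7.66 on knockdown neuronal arrays (log2 fold change -1.52 ± 0.09 SE, adjusted p = 2.45e-10). Its 3 other probes gave -1.45, -1.04 and -0.96 and were each called lower too. At the SNM stage Mcm6 was called close to the limit (-0.60) and lost the call without control SNM array 1, knockdown SNM array 1 or knockdown SNM array 2 (-0.58 to -0.55). Mcm2, Mcm3, Mcm4, Mcm7, Cdc6 and Cdt1 were also lower at the neuronal stage, with log2 fold changes from -1.42 for Mcm2 to -0.62 for Mcm7. The genes of this role that were not called were Mcm4 (-0.58) and Pcna (-0.55) at the SNM stage, and Gmnn, the geminin that blocks relicensing (-0.36), and Pcna (-0.50) at the neuronal stage. All of these had an adjusted p under 0.05 in limma and missed the limit of 1.5-fold. A dimmer probe of Mcm4 was called lower at the SNM stage (-0.86, adjusted p = 3.12e-06, limma), and the other probe of it was not (-0.52).

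The 4 nucleotide supply genes make or salvage deoxynucleotides. Of these, 3 were called lower in SNM and 4 in neuronal cultures, with medians of -0.64 and -1.22. Rrm2, the regulated small subunit of ribonucleotide reductase, read 9.76, 9.76 and 9.49 on control and 8.35, 8.36 and 8.16 on knockdown SNM arrays (log2 fold change -1.38 ± 0.09 SE, adjusted p = 6.56e-09), a 2.6-fold difference. It read 7.67, 7.74 and 7.49 against 6.04, 6.35 and 6.15 at the neuronal stage (log2 fold change -1.45 ± 0.09 SE, adjusted p = 1.40e-09). Another probe of Rrm2 gave -1.21 and -1.37, both called lower, and its dimmest probe gave -0.68 (called) and -0.49 (not called). On the chosen probes the values of Rrm2 at the 2 stages lay close together, whereas those of Tyms, the thymidylate synthase, lay apart. Tyms read 10.48, 10.43 and 10.30 against 9.94, 9.90 and 9.82 at the SNM stage (log2 fold change -0.52 ± 0.09 SE, adjusted p = 0.000115, under 1.5-fold and not called, though called at -0.59 with 75th percentile scaling) and 9.35, 9.22 and 9.08 against 7.50, 7.65 and 7.41 at the neuronal stage (log2 fold change -1.70 ± 0.09 SE, adjusted p = 7.07e-11). Tk1, the thymidine kinase of S phase, read 9.07, 9.06 and 8.90 against 8.26, 8.39 and 8.29 at the SNM stage (log2 fold change -0.70 ± 0.10 SE, adjusted p = 2.36e-05). At the neuronal stage its chosen probe gave -0.99 while a second, dimmer probe gave -0.12 and was not called (adjusted p = 0.468, limma), and the mean over its probes was not called at either stage. Rrm1, the large subunit of the reductase, was lower at both (-0.59 and -0.71). A dimmer probe of Rrm1 was called lower at the SNM stage (-0.68) but not at the neuronal stage (-0.58).

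Few G1 cyclins and kinases were called. Cdk6 was not tested. Of the 7 others, 2 were called lower in SNM and 1 in neuronal cultures, and medians were -0.58 and -0.12. These counts are 28.6% and 14.3% of the genes tested, where the rule called 8.76% and 14.4% of all symbols lower. The neuronal share thus lay near that of all symbols. Ccne1, cyclin E1, which binds Cdk2 at the start of S phase, was lower at both stages. It read 8.09, 7.95 and 7.88 on control and 6.76, 6.74 and 6.71 on knockdown SNM arrays (log2 fold change -1.23 ± 0.10 SE, adjusted p = 7.95e-08), and 6.99, 6.59 and 6.96 against 5.70, 6.03 and 5.70 at the neuronal stage (log2 fold change -1.04 ± 0.10 SE, adjusted p = 3.06e-07). Ccne2, Cdk2 and Cdk4 were not called at either stage, with log2 fold changes between -0.58 and -0.27 at the SNM stage and between -0.47 and 0.02 at the neuronal stage.

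The D-type cyclins, which link growth signals to the cycle, differed from one another in their values. Ccnd1 read 12.10, 11.96 and 12.07 on control and 11.45, 11.37 and 11.44 on knockdown SNM arrays and was lower (log2 fold change -0.63 ± 0.06 SE, adjusted p = 7.00e-07), as it was on its 2 other tested probes (-0.70 and -0.97). At the neuronal stage its arrays overlapped, at 12.06, 11.82 and 12.01 and 11.98, 11.97 and 11.86 (log2 fold change -0.03 ± 0.06 SE, adjusted p = 0.733). Ccnd2 had the largest spread between arrays of 1 condition among the members. It read 10.85, 11.43 and 12.41 on control and 10.02, 10.47 and 11.15 on knockdown SNM arrays, which overlap, and was not called (log2 fold change -1.02 ± 0.46 SE, adjusted p = 0.0753), but with the array number as a block it was (adjusted p = 0.00963, limma). It was called too when arrays were scaled without background correction (adjusted p = 0.0284 and 0.00564, limma), and without control SNM array 1 (-1.38, adjusted p = 0.0313, limma) or without knockdown SNM array 3 (-1.33, adjusted p = 0.0416, limma). At the neuronal stage Ccnd2 read 10.48, 11.87 and 11.504 against 10.06, 10.95 and 11.62 (log2 fold change -0.40 ± 0.46 SE, adjusted p = 0.479). Ccnd3 lay above control in knockdown cells without being called, at 0.29 in SNM and 0.41 in neuronal cultures on its brightest probe. At the SNM stage its other probes gave -7e-04 and -0.15 and were not called. At the neuronal stage its knockdown arrays (11.85, 11.83 and 11.81) lay above its control arrays (11.56, 11.37 and 11.32) and a dimmer probe was called higher (0.59, adjusted p = 0.00145, limma).

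**Figure D4:**
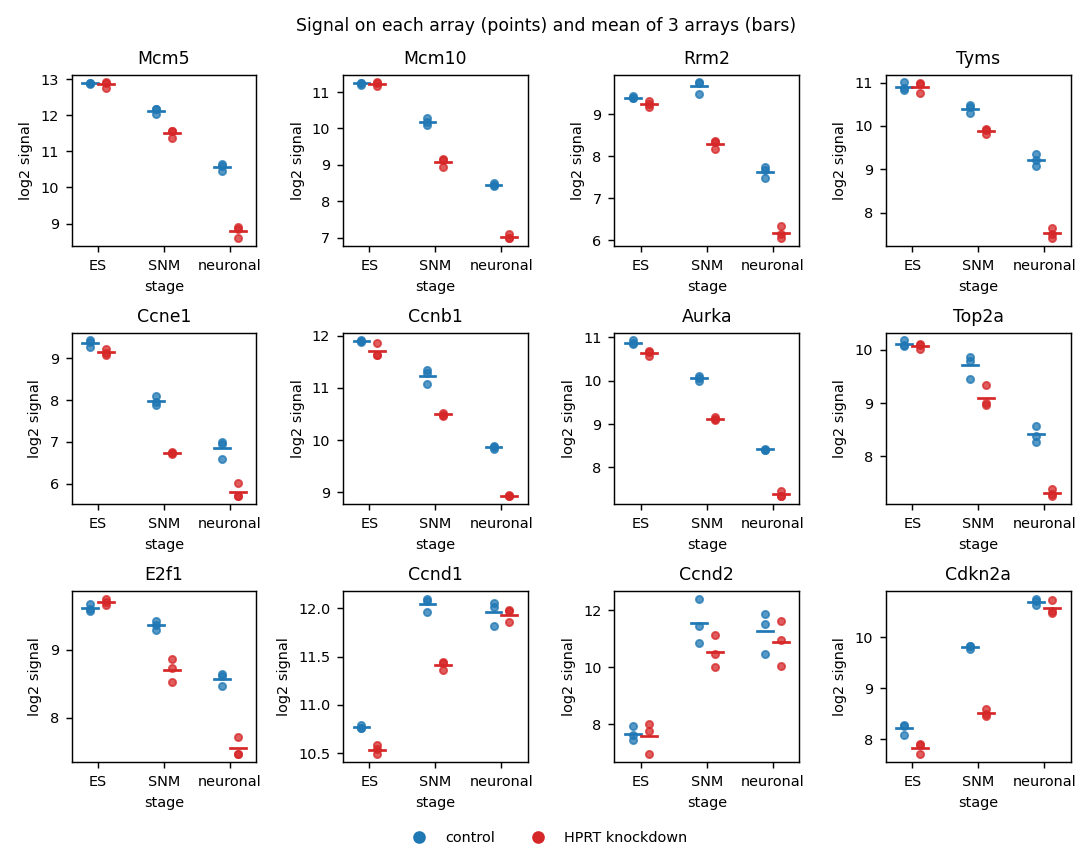
Log2 signal of 12 members on each array (points) by stage, with the mean of the 3 arrays of a condition as a bar, control in blue and knockdown in red; each panel has its own y axis. In the first 9 panels knockdown points lie below control points at both later stages, while Ccnd1 and Cdkn2a lie apart at the ES and SNM stages and overlap at the neuronal stage, and the arrays of Ccnd2 spread widely and overlap at every stage.

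Among the S and M phase cyclins, Ccnb1, the cyclin B1 that starts mitosis with Cdk1, was lower at both stages and Ccna2, cyclin A2, at the neuronal stage. Ccnb1 read 11.08, 11.29 and 11.34 on control and 10.49, 10.47 and 10.52 on knockdown SNM arrays (log2 fold change -0.74 ± 0.07 SE, adjusted p = 2.14e-07) and 9.89, 9.86 and 9.84 against 8.92, 8.92 and 8.94 at the neuronal stage (log2 fold change -0.94 ± 0.07 SE, adjusted p = 6.68e-09). Ccna2 read 6.38, 6.46 and 6.64 against 5.70, 5.91 and 5.78 at the neuronal stage (log2 fold change -0.69 ± 0.11 SE, adjusted p = 5.36e-05), and that call was lost without background correction and with a larger offset, at -0.41 to -0.47. At the SNM stage Ccna2 gave -0.58, just under 1.5-fold, and was called lower without knockdown SNM array 1, control SNM array 2 or knockdown SNM array 3 (-0.65 to -0.61).

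All 6 spindle checkpoint and mitotic kinase genes that were tested were lower at both stages, with medians of -0.86 and -0.92. Knockdown and control arrays of these genes did not overlap at either stage, as was so for 57.8% and 64.8% of all symbols tested. Bub1b, the checkpoint protein BubR1, read 10.27, 10.07 and 10.04 on control and 9.24, 9.09 and 9.03 on knockdown SNM arrays (log2 fold change -1.01 ± 0.09 SE, adjusted p = 1.43e-07). Aurka read 9.99, 10.06 and 10.10 against 9.09, 9.17 and 9.12 at the SNM stage (log2 fold change -0.93 ± 0.05 SE, adjusted p = 6.54e-10) and 8.41, 8.44 and 8.41 against 7.35, 7.45 and 7.34 at the neuronal stage (log2 fold change -1.04 ± 0.05 SE, adjusted p = 5.59e-11). The arrays of 1 condition lay close together for Aurka, and those of the 2 cell types did not overlap. Cdc20, the activator of the anaphase-promoting complex, whose promoter is shown above with its CHR letters, read 10.06, 10.06 and 9.998 against 9.09, 8.94 and 8.92 at the neuronal stage (log2 fold change -1.06 ± 0.06 SE, adjusted p = 1.22e-10). Its 3 other probes gave -1.16 to -0.93 there and were called as well. Mad2l1, Aurkb and Plk1 lay between -0.87 and -0.85 in SNM cultures and between -0.95 and -0.65 at the neuronal stage.

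Of the spindle, kinetochore and chromosome genes, 6 of 8 tested were lower in SNM and 5 of 7 in neuronal cultures, with medians of -0.73 and -0.74. Kif23, a motor of the central spindle, read 10.45, 10.54 and 10.91 on control and 9.55, 9.60 and 9.85 on knockdown SNM arrays (log2 fold change -0.96 ± 0.14 SE, adjusted p = 2.85e-05). Kif11, the motor that separates spindle poles, read 8.19, 8.08 and 8.44 against 7.23, 7.45 and 7.36 (log2 fold change -0.89 ± 0.10 SE, adjusted p = 2.84e-06). At the neuronal stage Kif23 was not called (-0.58) and Kif11 was (-0.78). Neither of these held under every setting, since Kif23 was called lower without control neuronal array 1 (-0.72, adjusted p = 0.000509, limma) or knockdown neuronal array 3 (-0.65, adjusted p = 0.00238, limma), and Kif11 lost its call without background correction and with a larger offset (-0.56 to -0.50). Top2a, the topoisomerase that disentangles replicated DNA, read 8.27, 8.56 and 8.39 against 7.28, 7.24 and 7.37 at the neuronal stage (log2 fold change -1.11 ± 0.11 SE, adjusted p = 3.20e-07), but a dimmer probe of it gave -0.28 and was not called (adjusted p = 0.418, limma), and the mean over its probes was called at neither stage. Its SNM call (-0.61) was lost without knockdown SNM array 1 or 3 or control SNM array 2 or 3 (-0.56 to -0.52). Birc5, survivin of the chromosomal passenger complex, read 8.81, 8.67 and 8.77 against 7.83, 7.74 and 7.70 (log2 fold change -0.995 ± 0.08 SE, adjusted p = 9.81e-09), and both of its other probes were called with it. Mki67, the proliferation marker Ki-67, missed the 1.5-fold limit at the SNM stage (-0.50) and passed it at the neuronal stage (-0.74). A dimmer probe of Mki67 was called at neither stage (-0.50 and -0.50). Tpx2, an activator of Aurka, passed the limit at the SNM stage only (-0.84 and -0.52), and Kif20a, near background throughout, was tested only at the SNM stage (0.15).

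Of the transcription factors, E2f1, an activator of S phase genes, was lower at both stages. It read 9.42, 9.37 and 9.29 on control and 8.87, 8.73 and 8.53 on knockdown SNM arrays (log2 fold change -0.65 ± 0.09 SE, adjusted p = 1.17e-05) and 8.64, 8.62 and 8.46 against 7.72, 7.46 and 7.47 at the neuronal stage (log2 fold change -1.02 ± 0.09 SE, adjusted p = 4.23e-08). The SNM call of E2f1 fell just under 1.5-fold without knockdown SNM array 3 (-0.56). E2f2 was called lower at the SNM stage from arrays that overlap, at 6.68, 6.92 and 7.63 and 5.94, 6.22 and 6.77 (log2 fold change -0.76 ± 0.28 SE, adjusted p = 0.0295), and lost the call without knockdown SNM array 1 (-0.58, adjusted p = 0.13, limma), without knockdown SNM array 2 (-0.72, adjusted p = 0.0787) or without control SNM array 3 (-0.49, adjusted p = 0.159), and when arrays were scaled without background correction (-0.52). E2f2 lost this call too with only the arrays compared (adjusted p = 0.057, limma) and with no detection filter (adjusted p = 0.0619, limma). A larger offset (-0.57), the mean over its probes (-0.51) and the methods' t-test did not call it either. A dimmer probe of E2f2 was called lower at the SNM stage (-0.89), and another was not (-0.34). Foxm1, an activator of mitotic genes, was not called at either stage, with -0.53 and -0.39.

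Of the 3 members grouped as CDK inhibitors, 1 was lower at the SNM stage, and none was called on its brightest probe at the neuronal stage. The 1 was Cdkn2a, which read 9.83, 9.76 and 9.82 on control and 8.45, 8.49 and 8.60 on knockdown arrays at the SNM stage (log2 fold change -1.29 ± 0.08 SE, adjusted p = 1.95e-09), a 2.44-fold difference that came second only to Rrm2 among the members. At the neuronal stage its arrays overlapped, at 10.63, 10.71 and 10.76 and 10.52, 10.73 and 10.48 (log2 fold change -0.12 ± 0.08 SE, adjusted p = 0.193). The locus makes p19ARF and p16INK4a from different first exons, and the array annotation gives the chosen probe and 1 other to transcript variant 1, which encodes p19ARF, and the third probe to variant 2, which encodes p16INK4a. The values of Cdkn2a as a member thus come from a probe annotated to p19ARF and not to p16INK4a. All 3 probes were lower at the SNM stage (-1.29, -0.91 and -1.32). They disagreed at the neuronal stage, where the second probe of variant 1 was higher in knockdown cells (0.63, adjusted p = 0.000607, limma) and the probe of variant 2 lower (-0.75, adjusted p = 0.000146, limma). Where in the transcripts these probes lie was not analysed here. Cdkn1b, p27, read 5.67, 5.95 and 6.23 on control and 5.83, 5.92 and 6.07 on knockdown SNM arrays (log2 fold change -0.01 ± 0.14 SE, adjusted p = 0.959) and 5.96, 6.17 and 6.16 against 6.14, 6.38 and 6.39 at the neuronal stage (log2 fold change 0.21 ± 0.14 SE, adjusted p = 0.219). Cdkn2c, p18INK4c, lay above control in knockdown cells at the SNM stage, with 7.31, 7.10 and 7.05 against 7.70, 7.60 and 7.48 (log2 fold change 0.44 ± 0.15 SE, adjusted p = 0.0199), under 1.5-fold, and gave 0.29 at the neuronal stage, where a dimmer probe was called higher (0.67, adjusted p = 0.000578, limma). At the SNM stage that dimmer probe gave 0.22 and was not called (adjusted p = 0.204, limma).

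Other genes of the same processes, from 3 lists that hold no member, were measured as well. Over all symbols tested the rule called 8.76% lower and 12% higher at the SNM stage, and 14.4% lower and 14.3% higher at the neuronal stage. Of 40 other DNA replication genes, 36 were tested in SNM and 34 in neuronal cultures, and 23 and 21 were called lower and none higher. Their medians were -0.70 and -0.71. The largest falls at the SNM stage were of Chaf1b, a subunit of the chromatin assembly factor at forks (-1.15), Cdc45l, the helicase partner Cdc45 (-0.97), and the GINS subunit Gins1 (-0.92), and at the neuronal stage of Chaf1b again (-1.52), Uhrf1, which maintains DNA methylation at forks (-1.31), and Gins2 (-1.16). Of 47 other mitosis genes on the array, 35 of 46 tested were lower in SNM and 27 of 43 in neuronal cultures, and none was higher. They were led by Cdca2 (-1.19), the phosphatase Cdc25a (-1.09) and the spindle motor Kif15 (-1.07), and then by the centromere protein Cenpm (-1.33), the separase Espl1 (-1.18) and Cdca2 (-1.07). Of 34 other regulators of the cycle, 6 of 26 tested were lower in SNM and 5 of 27 in neuronal cultures. The share at the neuronal stage, 18.5%, lay near that of all symbols. Skp2, which marks p27 for degradation, gave -0.97 and -1.23, and the checkpoint kinase Chek1 gave -0.91 and -1.08. Cdkn1c, the inhibitor p57, was lower at the SNM stage (-0.90), Mybl2, an activator of mitotic genes, was lower at the neuronal stage (-1.45), and Myc was the only one called higher, at the neuronal stage (1.14). At the ES stage Myc (-0.64) and the cytokinesis regulator Racgap1 of the mitosis list (-0.59) were called lower, and no other gene of these 3 lists was called. There the rule called 1.27% of all symbols tested lower and 0.531% higher.

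Over the whole course of differentiation most members fell in both cell types. In control cells, 15 of 43 members tested were lower at the SNM than at the ES stage (24.4% of all symbols were called lower) and 6 were higher (25.2% called higher). In the next step, to the neuronal stage, 36 were lower (14.8% called lower) and 2 higher (15.4% called higher), and over the whole course from ES to neuronal stage 36 were lower (31.9%) and 5 higher (29.2%). In knockdown cells, 32 of 44 were lower from ES to SNM stage (29.6% of all symbols) and 5 higher (28.1%), 35 were lower from SNM to neuronal stage (15.8%) and 2 higher (14.0%), and 37 of 43 were lower over the whole course (32.9%) and 6 higher (31.2%). The median of the members from ES to SNM stage was -0.50 in control and -1.07 in knockdown cells, and from SNM to neuronal stage -1.35 and -1.34. The median fall was thus larger in knockdown cells in the first step, and the medians of the second step lay close together. The stage comparisons share the arrays of the stage between them.

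Licensing genes had the largest falls. Over the whole course the log2 fold change of Cdc6 was -3.18 in control and -3.86 in knockdown cells, that of Mcm5 -2.32 and -4.08, and that of Mcm10 -2.78 and -4.21. From the ES to the SNM stage Rrm2 gave 0.27 in control cells, which was not called, and was lower in knockdown cells (-0.95). Aurkb, Mki67, Rrm1 and Foxm1 likewise lay between -0.01 and 0.14 in control cells at that step, none of them called. Of the 42 members detected on all arrays, 36 had their lowest mean on the knockdown neuronal arrays. For 35 of the 42 the mean of the knockdown SNM arrays lay between those of the control SNM and the control neuronal arrays, and for 6 (Ccnd1, Ccnd2, Ccnd3, Ccne1, E2f2 and Cdkn2a) it lay below the control neuronal mean. Their means followed 1 order in 29 of the 42, with both ES conditions above control SNM, then knockdown SNM, control neuronal and knockdown neuronal. The orders of means were counted for the members only, so no share of all symbols stands beside these counts.

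The members that rose from the ES to the SNM stage were G1 cyclins and the members grouped as CDK inhibitors, with Cdk4 in control cells. From the ES to the SNM stage Ccnd2 rose by 3.90 on the log2 scale in control and by 2.97 in knockdown cells, and Ccnd1 rose by 1.27 and 0.88. On its brightest probe Cdkn2a rose by 1.60 and 0.68 at this step. It rose by a further 0.90 and 2.06 from SNM to neuronal stage, and the arrays of the 2 cell types overlapped at the end. Cdkn2c rose by 1.08 and 1.61 and Cdkn1b by 0.61 and 0.88 from ES to SNM stage. Cdk4, the partner of the D-type cyclins, rose in control cells (0.68) before it fell by 1.12 at the next step, and Ccnd3 fell first (by 0.72 in control cells) and then rose by 1.10 in control and 1.22 in knockdown cells.

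The difference between stages in the effect of the knockdown was tested directly. The effect at the SNM stage was lower than at the ES stage for 24 of 44 members and higher for none, where 9.62% of all symbols were called lower and 12.8% higher. The effect at the neuronal stage was lower than at the ES stage for 26 of 43 members and higher for none (14.0% called lower and 14.1% higher). Between the neuronal and the SNM stage the effect differed for 5 of 44 members, 3 lower and 2 higher, where the rule called 16% of all symbols lower and 13.3% higher. The 3 were Mcm5 (log2 difference -1.15 ± 0.12 SE, adjusted p = 7.58e-07), Mcm6 (log2 difference -0.92 ± 0.12 SE, adjusted p = 1.08e-05) and Tyms (log2 difference -1.18 ± 0.12 SE, adjusted p = 7.32e-07), for which the knockdown difference widened on the brightest probe. The 2 were Ccnd1 (log2 difference 0.60 ± 0.09 SE, adjusted p = 4.86e-05) and Cdkn2a (log2 difference 1.17 ± 0.11 SE, adjusted p = 3.00e-07), for which it closed on the brightest probe. The other probes of Cdkn2a parted at the neuronal stage, at 0.63 (called higher) and -0.75 (called lower). The 3 other probes of Mcm6 gave SNM and neuronal values closer together than the brightest. They gave -0.93 and -1.45, -0.66 and -1.04, and -0.75 and -0.96. The count of 2 became 1 without knockdown neuronal array 1, without knockdown SNM array 2 or without control neuronal array 2. The other 39 members tested were not called different between these stages, which does not show that they were alike. The 5 ES cell genes were all called lower in this same test, with log2 differences from -1.82 to -1.14. So were all 8 fibroblast and feeder cell genes, all 8 skeletal muscle genes and 4 of 6 neuron genes tested. Of 6 genes of neural progenitors and radial glia 2 were lower and 1 higher, and of 8 oligodendrocyte genes 7 were higher and 1 lower. The part of these genes in the members' values was not tested.

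**Figure D5:**
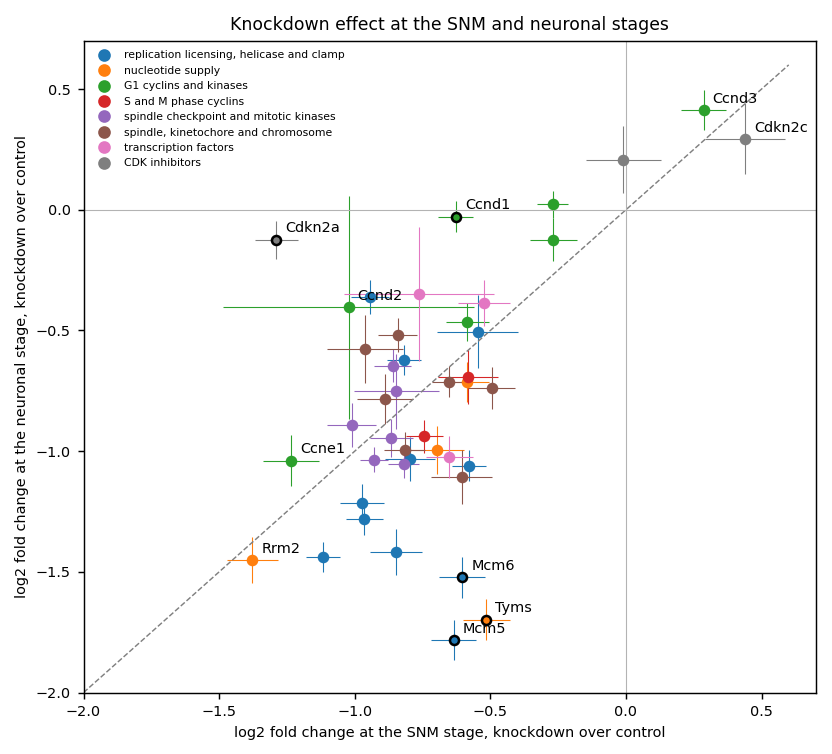
Log2 fold change of knockdown over control cells at the SNM stage (x axis) and at the neuronal stage (y axis) for each member tested at both, with standard errors from limma, coloured by role; the dashed line marks equal effects, and black outlines mark members whose effects differed between the stages. Mcm5, Mcm6 and Tyms lie below the line, Ccnd1 and Cdkn2a above it, and most members lie in the lower left.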

How the data were processed

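Illumina MouseWG-6 v2 arrays measured total RNA of 6 conditions, on 3 arrays each that shared 1 RNA pool. The deposited table holds, for 45281 probes, the authors' average bead signal intensity, with no background subtracted and no scaling, and the authors' detection p-value of each probe on each array. Gene symbols came from a second deposited table, whose 72 columns of values match no sample label and were not used. Groups came from the sample titles.

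The neqc function of limma 3.58.1 in R 4.3.3 (offset 16) took the background off with the detection p-values, applied quantile normalization and gave log2 values. One model of the 6 conditions gave knockdown against control at each stage, stage against stage in each cell type, and differences of knockdown effects between stages, all with limma (two-sided). A probe entered a test if some condition in it had a detection p under 0.05 on each of its 3 arrays. Calls needed an adjusted p (Benjamini-Hochberg, over all probes tested) under 0.05 and at least a 1.5-fold difference. Shares of all symbols called use the brightest probe of each symbol. The script was tested on simulated data. The number of arrays limits the precision, and the sequences are RefSeq windows of GRCm38.p6, matched by gene ID or symbol.

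The members, the lists of other genes, the cell type markers and the tests were chosen with earlier results of these data known. Levels per array are given for the 2 members of each role with the largest called changes at the SNM and at the neuronal stage, for every D-type cyclin and CDK inhibitor, and other members by values. The array number in the titles may pair arrays of knockdown and control. Deviations from the condition means of same-numbered arrays correlated at 0.56, 0.11 and 0.54 at the SNM stage and at 0.70, 0.10 and 0.39 at the neuronal stage, but at -0.15, -0.02 and 0.11 at the ES stage. No pair of arrays held identical values. Alternatives were other scalings, offsets, filters, fold limits, probe choices and tests, the array number as a block, and leaving out each array.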

Additional observations from a re-analysis of the deposited data

Results flagged for a closer look

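Tests of the difference between 2 stages in the knockdown effect, from limma, gave the results below, in log2 units and as the later stage minus the earlier. Between the SNM and the ES stage 24 members were lower and 0 higher, between the neuronal and the ES stage 26 were lower and 0 higher, and between the neuronal and the SNM stage 3 were lower and 2 higher.

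For the SNM minus the ES stage, the replication licensing genes gave -1.11 for Mcm10, -0.94 for Cdt1, -0.84 for Gmnn, -0.77 for Mcm2, -0.77 for Mcm3, -0.67 for Mcm7 and -0.61 for Mcm5. Rrm2 of nucleotide supply gave -1.22, the widest difference of the 24, and the E cyclins gave -1.01 for Ccne1 and -0.62 for Ccne2. The spindle checkpoint and mitotic kinase genes gave -1.05 for Bub1b, -0.997 for Aurkb, -0.91 for Cdc20, -0.91 for Mad2l1, -0.79 for Plk1 and -0.69 for Aurka. The spindle, kinetochore and chromosome genes gave -0.998 for Kif23, -0.92 for Birc5, -0.88 for Cenpa, -0.79 for Tpx2 and -0.76 for Kif11. The transcription factors E2f1 and Foxm1 gave -0.74 and -0.69, and Cdkn2a, grouped as a CDK inhibitor, gave -0.91 on a probe annotated to p19ARF.

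For the neuronal minus the SNM stage, Tyms gave -1.18, Mcm5 -1.15 and Mcm6 -0.92, so that these 3 were further below control at the later stage. The other probes of Mcm6 differed less between these stages than its brightest. Cdkn2a gave 1.17 and Ccnd1 0.60, and both lay closer to control at the later stage on their brightest probes. Other probes of Cdkn2a were called higher (0.63) and lower (-0.75) in knockdown cells at the neuronal stage.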

How the results depend on the processing

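Counts of members called were recomputed under 29 other settings, 18 of which left out 1 array each, and 656 of 684 counts stayed within 1.5 times the count given. The remainder follow mostly from the fold limit. With a limit of 2-fold, the members lower in knockdown cells numbered 5 in SNM and 15 in neuronal cultures, those lower in control cells from ES to SNM stage 5, those higher from SNM to neuronal stage 1 in control cells, and those higher from ES to SNM stage 2 in knockdown cells. The tests between stages then gave 4 lower (SNM minus ES), 14 lower (neuronal minus ES) and 1 higher (neuronal minus SNM). With no limit, knockdown against control gave 1 higher and 4 lower in ES cells, 2 higher in SNM and 1 higher in neuronal cultures, control cells gave 32 lower from ES to SNM stage, and knockdown cells 4 higher from SNM to neuronal stage. The tests between stages gave 5 higher and 10 lower (neuronal minus SNM) and 1 higher (neuronal minus ES). In knockdown cells from ES to SNM stage, 3 were higher with quantile normalization and 2 with 75th percentile scaling, both without background correction, and the mean of all probes of a symbol left 1 lower for neuronal minus SNM. The cause was not tested.

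Leaving out each array in turn gave 0 to 1 higher for SNM minus ES (1 without control ES array 1, control SNM array 1, knockdown ES array 2 or knockdown SNM array 3), 0 to 1 higher for neuronal minus ES (1 without knockdown ES array 3) and 1 to 3 higher for neuronal minus SNM. With the array number as a block, 31 members were lower in SNM and 28 in neuronal cultures, and Ccnd2 at the SNM stage was the only named change whose call moved. Over 75 changes of named members and all settings, 2101 of 2175 values stayed called or stayed not called, 54 lost the call and 20 gained it. Of changes called in the main fit or under a setting, 0 reversed direction. Direction was not compared for changes called in neither. The methods' t-test gave no test of the difference between stages. A few members (Ccnb2, Bub1 and Cenpe) were detected on no array, and signal near background limits Kif20a and Cdk6.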
